A study of Mus musculus with 4 samples.

Results

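The genes described here are 29 members of cholesterol synthesis and its regulation, chosen by gene name out of 32285 genes counted, in lung macrophages of mice with and without a mammary tumour oncogene. All 29 were found in the count files, and all 29 had UMIs (unique molecular identifiers, each standing for 1 captured RNA molecule) in alveolar macrophage cells of all 4 libraries. Cells were sorted by flow cytometry from digested lungs of female mice and read with a droplet 3′ assay. The wildtype mice were of the FVB strain, and in MMTV-HER2 mice a promoter of mouse mammary tumour virus drives the HER2 oncogene, mainly in mammary epithelium. The early stage was 16 weeks (early lesions in the HER2 mice) and the late stage 32 weeks (palpable tumours in the HER2 mice). Each of the 4 groups is 1 library, named below by genotype and stage. The number of mice behind a library is not stated in the labels, so nothing below has a replicate check and no test was made. Values for the 4 libraries are always given with the early stage first and, within a stage, with wildtype before HER2.

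Cells build cholesterol from acetyl-CoA. The mevalonate part of the pathway makes isoprenoid units and joins them to farnesyl diphosphate, and the sterol part turns that into squalene, closes the rings and trims lanosterol to cholesterol. When sterols in the endoplasmic reticulum run low, SCAP escorts the SREBP transcription factors to the Golgi, where they are cut and released to switch on these enzymes, and when sterols are ample the INSIG proteins hold SCAP back. Alveolar macrophages take up and break down the lipid-rich surfactant of the lung, and so handle large amounts of cholesterol and fatty acids.

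A barcode was kept as a cell at 1000 or more UMIs, 500 or more genes and at most 10% mitochondrial UMIs, which left 5449, 5126, 5129 and 6554 cells. AM cells (alveolar macrophage-like, with Chil3, Ear1, Ear2, Fabp1, Lpl and Plet1 at 0.4% or more of UMIs and above the C1q genes) numbered 4833, 4413, 4245 and 5702. IM cells (interstitial macrophage-like, with 5 or more C1qa, C1qb and C1qc UMIs and these above the AM genes) numbered 330, 455, 633 and 661, and other cells 286, 258, 251 and 191. The summed AM markers stood at 16176 to 19271 CPM in AM cells and 462 to 801 CPM in IM cells, where CPM is UMIs per 1000000 UMIs of the class. Libraries held 28786682 to 39228655 UMIs in all, and pairs of libraries shared 1 to 13 cell barcodes. An AM cell held 4309, 3728, 4752 and 4369.5 UMIs at the median, so HER2 early was the shallowest library and wildtype late the deepest. The IM class of wildtype early stood apart, with T cell markers at 1811 CPM against 54.6 to 203 CPM in the other libraries. In it 132 of 330 cells held 3 or more T cell marker UMIs. Wildtype late also stood apart in AM cells. Ribosomal protein genes took 8.55% of its UMIs against 10.4 to 10.7% elsewhere, and the median gene was lower in HER2 late than in wildtype late, by 0.21 on the log2 scale.

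In AM cells the enzymes of cholesterol synthesis were lower in the HER2 library than in the wildtype library at both stages. The summed level of the 18 enzymes was 370.2, 308, 427 and 359 CPM, from 5619 to 9890 UMIs. HER2 early was the lowest of the 4 libraries and wildtype late the highest. The log2 ratio of HER2 over wildtype was -0.26 (95% interval -0.31 to -0.22) early and -0.25 (95% interval -0.29 to -0.21) late, where the interval is an exact conditional binomial one and covers counting error only. The median log2 fold over all genes with 10 CPM or more was -0.026 early and -0.21 late. Relative to that median the enzyme sum was therefore -0.24 early but only -0.043 late. Over age, the sum was higher at 32 than at 16 weeks by a log2 ratio of 0.21 (95% interval 0.16 to 0.25) in wildtype and 0.22 (95% interval 0.17 to 0.27) in HER2. The median of all genes moved by 0.16 in wildtype and by -0.014 in HER2. Relative to it the age ratio was 0.043 in wildtype and 0.23 in HER2.

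**Figure D1:**
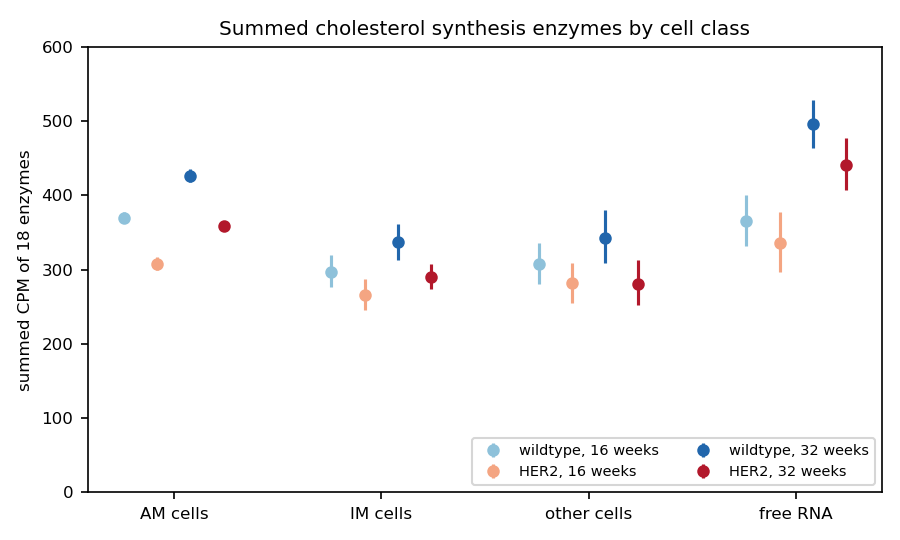
Summed CPM of the 18 cholesterol synthesis enzymes (vertical axis) in AM cells, IM cells, other cells and free RNA (barcodes with 10 to 100 UMIs) of each library. Points are single libraries and bars exact Poisson 95% intervals, which cover counting error only. In AM cells HER2 early is lowest at 308 CPM and wildtype late highest at 427 CPM, and in each class the HER2 point lies below the wildtype point of the same age, which for other cells at 32 weeks turns without the epithelial cells (284 CPM in HER2 and 272 CPM in wildtype).

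Free RNA, taken from barcodes with 10 to 100 UMIs, held the enzymes at 365, 336, 496 and 441 CPM. Subtracting a share of it left the AM ratio at -0.27 early and -0.27 late. Among AM cells of 3000 to 6000 UMIs only, the ratio was -0.25 early and -0.20 late. T cell markers stood at 36.8 CPM in AM cells of wildtype early against 2.25 to 3.52 CPM in the others, and without AM cells holding 3 or more of their UMIs the early ratio was -0.27. AM cells of 2000 or more UMIs were thinned to 2000, which left out 357, 490, 171 and 340 smaller cells. A thinned cell held 0.742, 0.612, 0.852 and 0.717 enzyme UMIs on average, and 45.4, 41.4, 50.5 and 45.1% of thinned cells held any. Over all AM cells, unthinned and with the smaller cells included, the shares were 66.8, 60.05, 74.1 and 67.7%. The variance over the thinned cells was 1.67, 1.44, 1.57 and 1.51 times the mean, so that enzyme UMIs were spread over many cells with some excess over Poisson counting. The order of the libraries was the same for the thinned means as for the sums.

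The mevalonate part comprises 7 enzymes here, and all 7 had a log2 ratio below 0 early and 5 of 7 late, where all genes with UMIs in both libraries had 56.2% and 71.7% below 0. Their summed level was 178, 151, 189 and 168 CPM, with a log2 ratio of HER2 over wildtype of -0.24 (95% interval -0.31 to -0.17) early and -0.17 (95% interval -0.23 to -0.11) late. The median of all genes was -0.026 early and -0.21 late. The late sum was therefore no lower than the median gene. Hmgcs1 encodes the synthase that makes HMG-CoA, an early intermediate. It stood at 57.00, 47.5, 67.9 and 56.9 CPM and was lower in HER2 at both stages, by log2 -0.26 (95% interval -0.39 to -0.14) and -0.25 (95% interval -0.36 to -0.15). The late interval includes the median of all genes. Pmvk (phosphomevalonate kinase) stood at 30.7, 25.9, 25.6 and 25.9 CPM. Here wildtype early was above the other libraries, which lay close together. Mvd, which decarboxylates mevalonate diphosphate, stood at 32.4, 28.1, 31.9 and 30.2 CPM, a narrow range. Idi1 interconverts the isoprenoid building blocks. Its 22.3, 20.03, 27.4 and 21.00 CPM set wildtype late above the rest, with a late log2 ratio of -0.38 (95% interval -0.55 to -0.21) against -0.15 (95% interval -0.35 to 0.044) early. Fdps, the synthase of farnesyl diphosphate, stood at 23.1, 17.9, 21.7 and 20.8 CPM and was lower in HER2 early by log2 -0.36 (95% interval -0.57 to -0.16), while the late ratio was -0.066 (95% interval -0.24 to 0.11). Its 3′ end closely matches 5 pseudogenes (95% identity or more), none of them counted in these files. Acat2 and Mvk, which start the pathway and phosphorylate mevalonate, were below 10 CPM at 4.61 to 6.26 and 6.53 to 9.32 CPM.

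At 32 weeks the sterol part was lower by more than the mevalonate part, while at 16 weeks the intervals of both overlapped. Its 11 enzymes summed to 192, 158, 238 and 191 CPM, with HER2 over wildtype at -0.28 (95% interval -0.35 to -0.21) early and -0.32 (95% interval -0.37 to -0.26) late. Beside these, the median of all genes was -0.026 early and -0.21 late. Cyp51, which removes a methyl group from lanosterol (chr5:4081145-4104746, GRCm38), stood at 33.99, 21.7, 39.7 and 29.4 CPM. It was the most lowered enzyme of 10 CPM or more in HER2 early, with a log2 ratio of -0.65 (95% interval -0.83 to -0.47), a 1.57-fold difference, and it was also lower late at -0.43 (95% interval -0.57 to -0.29). Msmo1, a methylsterol oxidase that acts after Cyp51 (chr8:64718139-64733792), followed the same order of libraries at 30.2, 22.5, 38.1 and 28.5 CPM. Its ratios were -0.42 (95% interval -0.60 to -0.24) early and -0.42 (95% interval -0.56 to -0.28) late. For both genes HER2 early was lowest and wildtype late highest, and the 95% Poisson intervals of HER2 early and wildtype early did not overlap.

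Ebp, a sterol isomerase, stood at 61.9, 56.3, 69.1 and 62.1 CPM and differed little, with ratios of -0.14 (95% interval -0.25 to -0.020) and -0.15 (95% interval -0.26 to -0.053). Dhcr7, the reductase that makes cholesterol from its last precursor, stood at 18.2, 19.2, 28.8 and 22.99 CPM. It was alone among the sterol enzymes of 10 CPM or more in lying above 0 early, at 0.074 (95% interval -0.14 to 0.28), and late it was -0.32 (95% interval -0.48 to -0.16). In wildtype it differed most with age of the enzymes at that level, at 0.66 (95% interval 0.48 to 0.84). Fdft1 (squalene synthase) and Nsdhl (a sterol dehydrogenase) ranged over 10.3 to 13.1 and 7.90 to 13.1 CPM. Below them came Sqle (squalene epoxidase) at 4.88 to 9.69, Lss (lanosterol synthase) at 3.18 to 5.56, Tm7sf2 (a sterol reductase) at 1.44 to 2.69, Hsd17b7 (a sterol ketoreductase) at 6.36 to 8.58 and Sc5d (a sterol desaturase) at 3.73 to 9.37 CPM. Among these low genes Sc5d had 68 UMIs in HER2 early against 157 in wildtype early, a log2 ratio of -0.88 (95% interval -1.31 to -0.46), and Sqle had 89 against 159, a ratio of -0.51 (95% interval -0.90 to -0.13). Both lay below the 10 CPM limit early and are in none of the counts of AM genes past a step that use this limit.

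**Figure D2:**
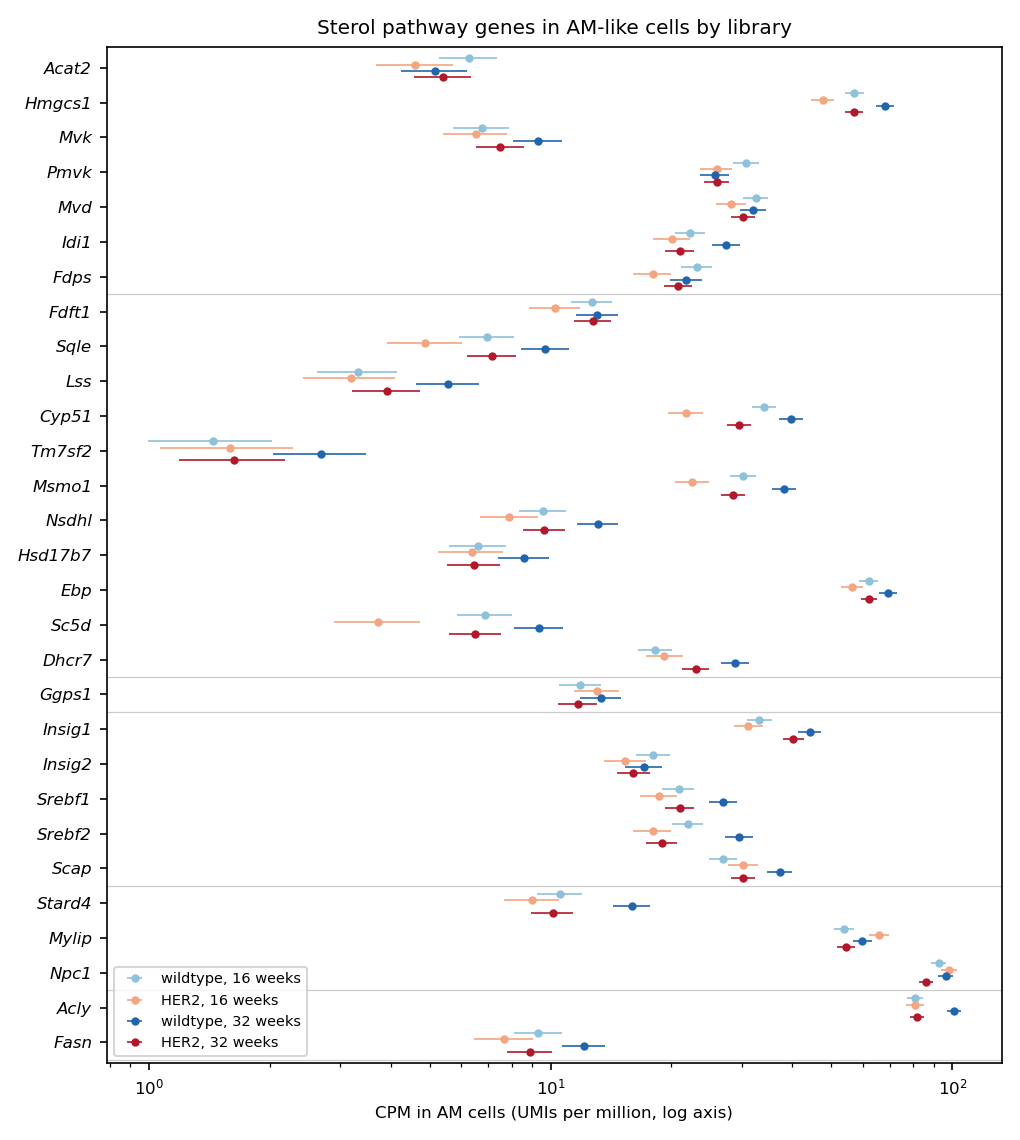
Level of each of the 29 genes in AM cells (horizontal log axis, CPM), grouped by role from the mevalonate part at the top to fatty acid synthesis at the bottom. Points are single libraries and bars exact Poisson 95% intervals. For most enzymes the HER2 early point lies furthest left and the wildtype late point furthest right, as for Cyp51 at 21.7 and 39.7 CPM.

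The regulators did not all follow the enzymes. Srebf2 encodes the SREBP factor that mainly drives cholesterol genes (chr15:82147181-82205379). It stood at 21.96, 17.9, 29.5 and 18.9 CPM. Wildtype late was well above the other libraries, and the HER2 over wildtype ratio was -0.29 (95% interval -0.50 to -0.088) early and -0.64 (95% interval -0.81 to -0.47) late. Srebf1, whose products mainly drive fatty acid genes, stood at 20.8, 18.6, 26.9 and 20.96 CPM, with a late ratio of -0.36 (95% interval -0.53 to -0.19). Scap stood at 26.9, 30.2, 37.2 and 30.1 CPM, where wildtype early was lowest, and its early ratio was 0.17 (95% interval -0.00066 to 0.34). Insig1, itself a well-known target of SREBP, stood at 33.1, 31.1, 44.1 and 40.2 CPM and followed age more than genotype. It was higher at 32 weeks in wildtype, by 0.42 (95% interval 0.28 to 0.56), and in HER2, by 0.37 (95% interval 0.22 to 0.52), while HER2 over wildtype was -0.091 (95% interval -0.25 to 0.068) early and -0.14 (95% interval -0.26 to -0.0093) late. Insig2 ranged over 15.4 to 18.02 CPM. Summed over these 5 genes the ratio was -0.094 (95% interval -0.18 to -0.011) early and -0.29 (95% interval -0.36 to -0.23) late.

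Of the genes for transport and uptake, Mylip ran against the enzymes early. It encodes a ubiquitin ligase induced by the sterol-sensing LXR receptors, and stood at 53.8, 65.7, 59.6 and 54.3 CPM. HER2 early was the highest library, with a ratio of 0.29 (95% interval 0.17 to 0.41), and the late ratio was -0.14 (95% interval -0.24 to -0.027). Npc1, which exports cholesterol from lysosomes, stood at 92.6, 97.99, 96.3 and 85.8 CPM, with ratios of 0.082 (95% interval -0.010 to 0.17) and -0.17 (95% interval -0.25 to -0.080). Stard4, a cytosolic cholesterol carrier, ranged over 8.998 to 15.95 CPM with wildtype late highest, and its late ratio was -0.66 (95% interval -0.89 to -0.42). Ggps1, which makes the geranylgeranyl diphosphate used to modify proteins, ranged over 11.7 to 13.4 CPM with no interval that left out 0 in any comparison.

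Acly supplies the acetyl-CoA that both sterol and fatty acid synthesis start from. It stood at 80.9, 80.9, 101 and 81.6 CPM, the same in both early libraries, with wildtype late above the rest. Fasn, the fatty acid synthase, ranged over 7.68 to 12.1 CPM.

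Promoter sequence was read for 24 of the 29 genes from RefSeq windows of 300 bases, 250 before and 50 after the start (GRCm38.p6). Of 3 motifs sought on both strands, CCAAT, the site bound by NF-Y, which works with SREBP at many sterol promoters, was in at least 1 window of 22 of the 24 genes (91.7%), against 41.1% of 27025 genes with a window and 42.6% of 6114 of them expressed in AM cells. Some genes have several windows, and counted by window it was in 23 of 32 (71.9%), against 37.4% of 32851. GGGCGG, the core of an Sp1 site, was in a window of 21 genes (87.5%), against 38.2% of genes and 72.2% of those expressed in AM cells. The letters TCACNCCAC, one form of the sterol regulatory element, were in 1 window, that of Hmgcs1, beginning at position -137 from the start of the gene, against 1.44% of genes. A match describes letters only and is not evidence of binding, and other forms of the element were not sought. The 5 windows below are shown because Cyp51 and Msmo1 moved together across the libraries of AM cells and Hmgcs1 holds the sterol element. Insig1 was higher at 32 weeks in AM cells of both genotypes, and Srebf2 encodes the factor that drives the pathway and was lower in HER2 late. Capitals mark every match to the 3 motifs on either strand (ATTGG and CCGCCC are CCAAT and GGGCGG on the other strand), and no match overlapped another. Windows run 5′ to 3′ on the gene's strand, at chr13:119690101-119690400 (plus strand) for Hmgcs1, chr5:4104648-4104947 (minus strand) for Cyp51, chr8:64733529-64733828 (minus strand) for Msmo1, chr5:28071162-28071461 (plus strand) for Insig1 and chr15:82147019-82147318 (plus strand) for Srebf2.
Hmgcs1: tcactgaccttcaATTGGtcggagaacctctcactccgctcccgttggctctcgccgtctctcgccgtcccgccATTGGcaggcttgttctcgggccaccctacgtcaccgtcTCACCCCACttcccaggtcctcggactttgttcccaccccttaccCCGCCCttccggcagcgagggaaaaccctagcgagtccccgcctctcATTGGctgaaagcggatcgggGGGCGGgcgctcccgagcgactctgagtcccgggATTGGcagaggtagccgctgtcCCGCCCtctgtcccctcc
Cyp51: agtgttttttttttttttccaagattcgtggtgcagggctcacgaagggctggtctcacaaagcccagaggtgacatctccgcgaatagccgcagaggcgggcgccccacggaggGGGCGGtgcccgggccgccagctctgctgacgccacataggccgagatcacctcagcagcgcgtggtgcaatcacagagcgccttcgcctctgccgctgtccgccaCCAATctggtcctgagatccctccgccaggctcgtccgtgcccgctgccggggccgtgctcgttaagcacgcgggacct
Msmo1: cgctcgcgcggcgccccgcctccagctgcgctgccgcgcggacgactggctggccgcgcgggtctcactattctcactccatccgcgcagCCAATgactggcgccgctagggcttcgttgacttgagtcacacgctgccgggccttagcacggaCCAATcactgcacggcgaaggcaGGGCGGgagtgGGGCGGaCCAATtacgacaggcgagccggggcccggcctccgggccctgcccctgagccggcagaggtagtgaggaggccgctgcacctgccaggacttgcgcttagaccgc
Insig1: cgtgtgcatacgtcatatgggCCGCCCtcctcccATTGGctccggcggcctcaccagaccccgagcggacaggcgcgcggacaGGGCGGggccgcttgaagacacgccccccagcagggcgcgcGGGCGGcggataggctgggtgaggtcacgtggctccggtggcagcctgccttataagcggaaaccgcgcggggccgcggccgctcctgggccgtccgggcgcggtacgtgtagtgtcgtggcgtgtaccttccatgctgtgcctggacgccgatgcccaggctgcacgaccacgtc
Srebf2: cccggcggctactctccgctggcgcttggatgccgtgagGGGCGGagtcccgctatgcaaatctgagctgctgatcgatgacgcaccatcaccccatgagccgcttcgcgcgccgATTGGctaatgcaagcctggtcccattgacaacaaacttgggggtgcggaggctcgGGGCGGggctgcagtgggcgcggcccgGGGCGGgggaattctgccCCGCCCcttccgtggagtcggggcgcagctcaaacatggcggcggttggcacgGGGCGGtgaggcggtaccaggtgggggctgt

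Counted gene by gene, a gene was called higher or lower at a log2 fold of 0.32 or more either way (the step), among those with 10 CPM or more in either AM library of a pair. Early, 20 of 29 members reached that level. Of these 0 were called higher and 3 lower (15.0%), namely Fdps, Cyp51 and Msmo1, against 0.709% of all 7189 genes called higher and 1.77% called lower. The median log2 fold of the 20 was -0.18 against -0.026 for all genes. Counting the enzymes at any level, 16 of 18 had a ratio below 0 early and 16 of 18 late, against 56.2% and 71.7% of all genes with UMIs in both libraries. Only Stard4 reached 10 CPM in a single library of the pair.

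Late, 22 members reached the level, of which 0 were called higher and 9 lower (40.9%). The 9 were Idi1, Cyp51, Msmo1, Nsdhl, Dhcr7, Srebf1, Srebf2, Stard4 and Fasn, against a background of 4.87% of 7439 genes called higher and 29.3% called lower. Nsdhl and Fasn reached 10 CPM through wildtype late alone. The members' median was -0.28 against -0.21 for all genes. After that median was taken off, 2 members, Srebf2 at -0.43 and Stard4 at -0.45, were still lower by the step, against 5.73% of all genes. Among the enzymes Cyp51 was at -0.22 and Msmo1 at -0.21 on that scale, inside the step.

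**Figure D3:**
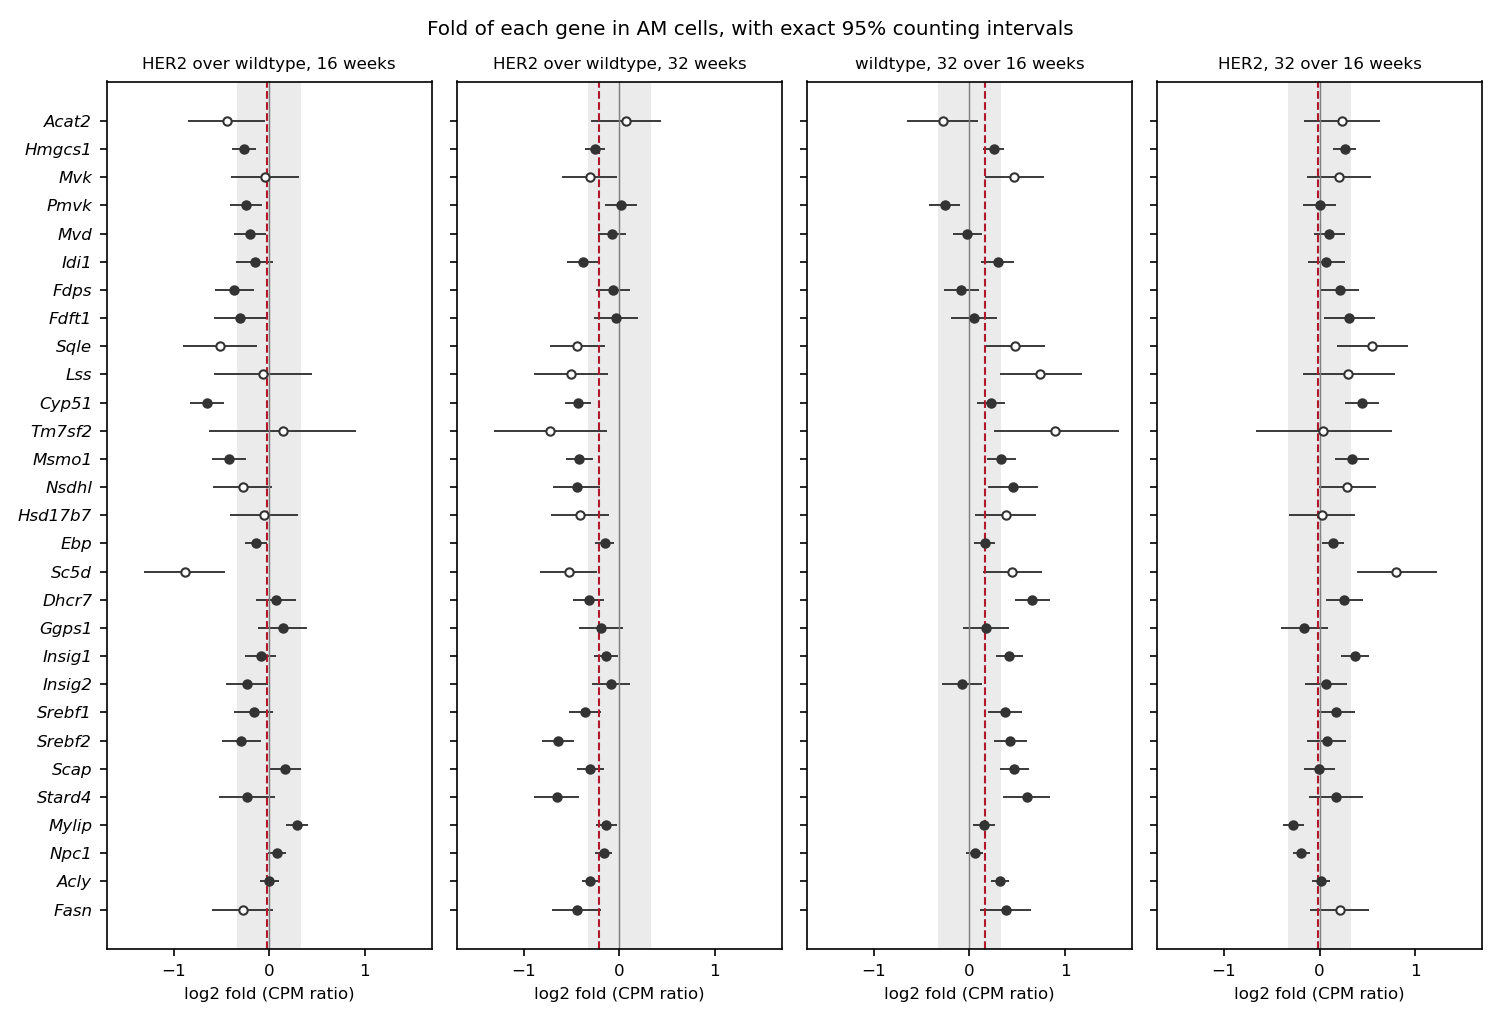
Log2 fold of each gene in AM cells for HER2 over wildtype at 16 and 32 weeks and for 32 over 16 weeks in wildtype and HER2 (horizontal axes), with exact 95% counting intervals. Filled points have 10 CPM or more in either library, open points less, the grey band lies within the step of 0.32, and the dashed line is the median of all genes. Early, Cyp51 at -0.65 lies furthest left of the filled points, while late the whole set lies around the dashed line at -0.21.

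With age in wildtype, 9 of 22 members (40.9%) were called higher and 0 lower, against 27.3% and 7.96% of 7489 genes. The 9 were Msmo1, Nsdhl, Dhcr7, Insig1, Srebf1, Srebf2, Scap, Stard4 and Fasn, of which Nsdhl and Fasn reached 10 CPM through wildtype late alone and so could only be higher. Relative to the median of 0.16, 2 stayed higher, Dhcr7 at 0.49 and Stard4 at 0.44, and Pmvk was lower at -0.42, against 11.1% and 15.5% of genes. With age in HER2, 3 of 20 members (15.0%) were called higher and 0 lower, against 2.38% and 1.88% of 7177 genes. These were Cyp51 at 0.44 (95% interval 0.27 to 0.62), Msmo1 at 0.34 (95% interval 0.16 to 0.51) and Insig1 at 0.37. This comparison shares the HER2 early library with the early comparison of genotypes, and the age comparison in wildtype shares wildtype late with the late one. The matching members are therefore not separate evidence.

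The order of the 4 libraries puts these together. Of 22 members with 10 CPM or more in any library, 16 (72.7%) were lowest in HER2 early, against 27.3% of 7528 genes. Wildtype late was highest in 16 (72.7%), but it was highest in 66.4% of all genes as well. Both held at once for 13 members (59.1%), against 23.4% of genes. HER2 early was also the shallowest library in AM cells and wildtype late the deepest, and a link of these counts with depth was not tested. Nsdhl and Fasn reached 10 CPM in wildtype late alone, which fixed that library as their highest. Among the 20 members with 10 CPM or more in 2 or more libraries, 14 were lowest in HER2 early, 14 highest in wildtype late and 11 both, against 26.8, 65.9 and 23.0% of 7201 genes. Of the 18 enzymes at any level, 15 were lowest in HER2 early. The share of all genes at any level was not computed, so this count has no background beside it.

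**Figure D4:**
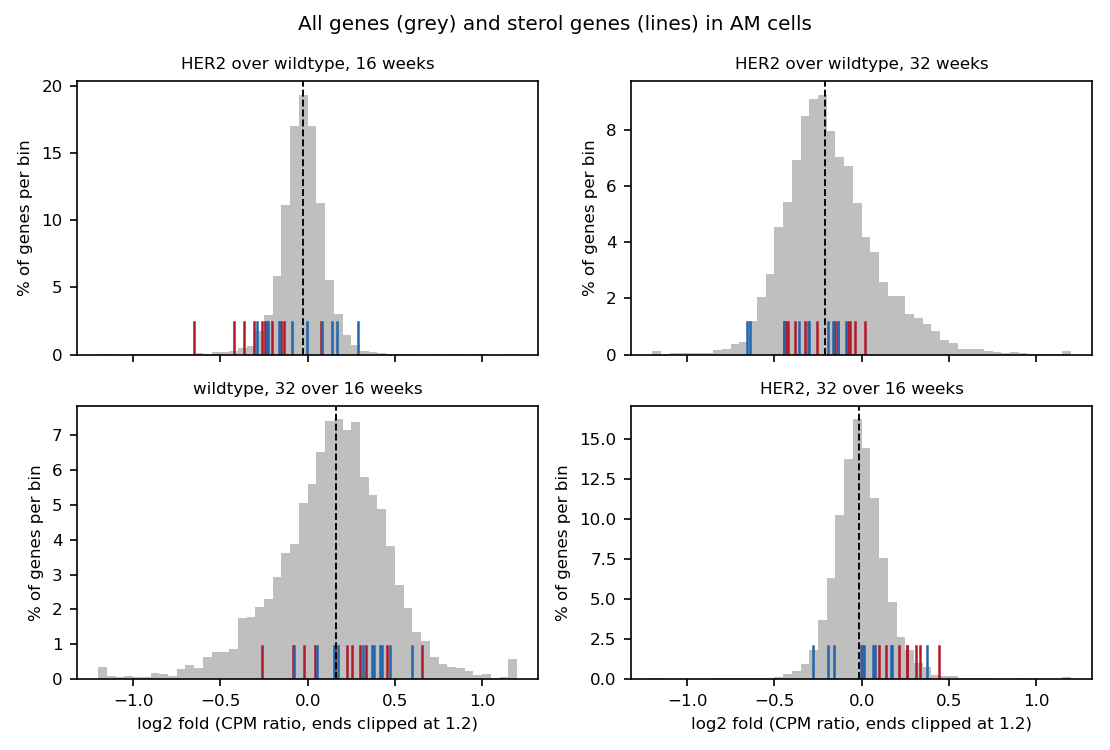
Distribution of log2 folds over all genes with 10 CPM or more in either AM library (grey bars, percent of genes per bin, ends clipped at 1.2), with the sterol genes as lines (red for the 18 enzymes, blue for the other members) and the median of all genes dashed. At 16 weeks Cyp51, Msmo1 and Fdps lie at -0.65, -0.42 and -0.36 in the left tail of a narrow distribution, while at 32 weeks the members lie within a broad distribution centred at -0.21.

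AM cells in cycle had 3 or more UMIs of 26 cell cycle genes after thinning to 2000 UMIs. They made up 6.23, 4.95, 4.98 and 5.04% of the AM cells with 2000 or more UMIs, and the values of this paragraph cover those cells only. The enzyme sum was 441, 364, 413 and 369 CPM in cycle and 367, 307, 429 and 359.7 CPM out of cycle. In-cycle cells were higher in both early libraries, at log2 0.27 and 0.25, while the late intervals spanned 0. Idi1 was the 1 member of 29 with an interval above 0 in all 4 libraries, at log2 0.90, 0.79, 0.48 and 0.45 in cycle over out, against 7.51% of 13898 genes, and 0 members were below in all 4, against 2.24%. Both shares of members lie under those of all genes, and Idi1 is described because it passed this rule. Idi1 stood at 38.98, 33.1, 37.2 and 28.2 CPM in cycle and 20.9, 19.1, 26.8 and 20.7 CPM out of cycle. Out-of-cycle cells alone gave enzyme ratios of HER2 over wildtype of -0.25 early and -0.25 late. In-cycle cells alone, with fewer UMIs, gave -0.27 (95% interval -0.45 to -0.10) early and -0.16 (95% interval -0.33 to 0.0074) late. Over age in wildtype the ratio was 0.23 out of cycle and -0.095 (95% interval -0.25 to 0.063) in cycle.

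**Figure D5:**
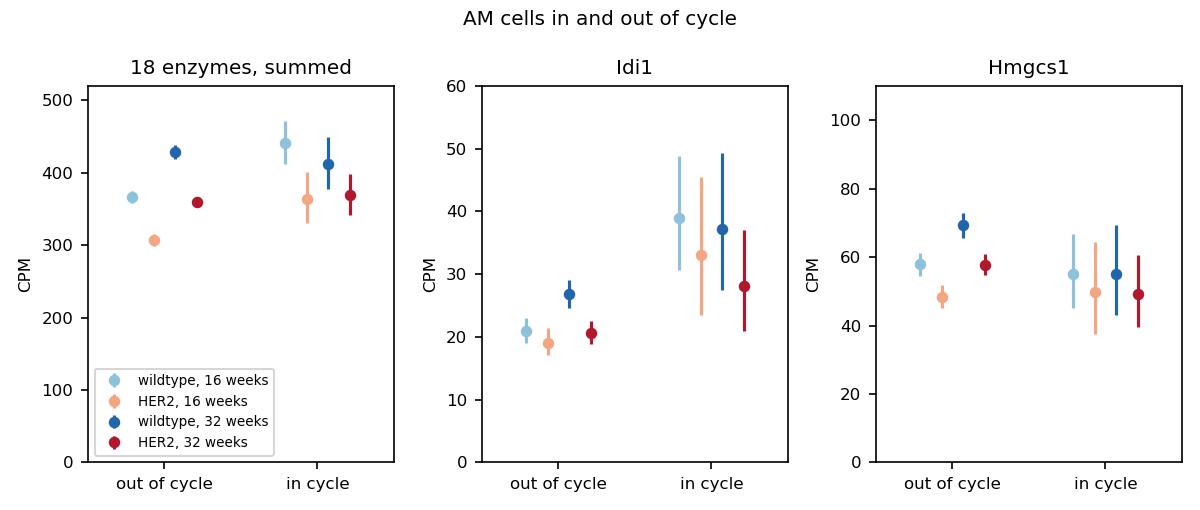
CPM of the 18 enzymes summed, of Idi1 and of Hmgcs1 (vertical axes) in AM cells out of cycle and in cycle. Points are single libraries and bars exact Poisson 95% intervals. Idi1 lies higher in cycle in each library, for example 39.0 against 20.9 CPM in wildtype early, while the Hmgcs1 intervals in and out of cycle overlap.

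IM cells held fewer UMIs and so wider intervals. Their enzyme sum was 297, 266, 337 and 291 CPM, with log2 ratios of IM over AM cells of -0.34 to -0.21 by library. The totals behind CPM differ in make-up between the classes. The rRNA-overlapping Gm42418 took 16.5 to 19.6% of AM UMIs and 3.74 to 6.18% of IM UMIs. Ribosomal protein genes took 8.55 to 10.7% and 16.1 to 17.6%. No ratio between the classes was taken relative to the median gene. HER2 over wildtype was -0.16 (95% interval -0.32 to -0.0024) early and -0.21 (95% interval -0.35 to -0.079) late, and the early value without cells holding 3 or more T cell marker UMIs was -0.13. The median of all genes in IM cells was -0.11 early and -0.14 late, and relative to it the ratios were -0.050 and -0.069.

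Between the classes, 3 members were higher in IM than in AM cells, and 7 lower, with the interval on the same side of 0 in all 4 libraries, against 20.8% and 10.5% of 13898 genes. The 3 higher were Ebp, Sc5d and Srebf2, with log2 ratios of 0.24 to 0.67, 0.64 to 1.75 and 0.64 to 1.28. Mvd differed most of the 7 lower, at -2.34 to -1.87, beside Hmgcs1 (-1.32 to -0.60), Cyp51 (-1.31 to -0.61), Insig1 (-1.72 to -1.04), Scap (-1.15 to -0.47), Npc1 (-0.73 to -0.43) and Acly (-0.80 to -0.55). Srebf2 was therefore higher in IM cells while its escort Scap and its target Insig1 were lower there. In other cells, which are mixed, Sc5d, Ggps1, Srebf2 and Stard4 were higher than in AM cells in all 4 libraries and Mvd, Cyp51, Insig1 and Npc1 lower, 4 of 29 each way, against 22.5% and 9.18% of genes.

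In the mevalonate part of IM cells, Hmgcs1 stood at 37.5, 19.8, 35.3 and 22.8 CPM and was lower in both HER2 libraries, at log2 -0.92 (95% interval -1.46 to -0.39) early and -0.63 (95% interval -1.09 to -0.18) late. The early ratio includes the T cell marker cells of wildtype early, and its size without them is not given here. Pmvk stood at 21.8, 16.8, 16.3 and 31.8 CPM, with HER2 late above the other 3 libraries, by 0.96 (95% interval 0.42 to 1.53) over wildtype late. Fdps stood at 26.2, 20.7, 27.8 and 18.9 CPM, with a late ratio of -0.56 (95% interval -1.07 to -0.050). The rest of this part varied with few UMIs. Idi1 stood at 13.3, 15.1, 17.2 and 13.5, Mvd at 8.87, 6.04, 8.39 and 5.95, Acat2 at 8.06, 7.33, 7.07 and 6.21 and Mvk at 4.03, 7.77, 10.6 and 5.95 CPM.

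In the sterol part of IM cells, wildtype late was the highest library for most genes, several of them with few UMIs. The share of all genes highest in that library in IM cells was not computed. Cyp51 stood at 13.7, 14.2, 23.9 and 16.3 and Msmo1 at 22.2, 24.2, 33.6 and 19.9 CPM, and Msmo1 was lower in HER2 late than in wildtype late by -0.75 (95% interval -1.23 to -0.28). Ebp went the other way, at 78.2, 84.1, 81.3 and 98.8 CPM, highest in HER2 late. Sqle at 3.63, 4.75, 12.8 and 5.43 and Sc5d at 10.9, 12.5, 16.3 and 10.1 CPM had late ratios of -1.24 (95% interval -2.12 to -0.38) and -0.70 (95% interval -1.38 to -0.0071). Dhcr7 stood at 20.97, 11.2, 15.02 and 12.9 CPM, with an early ratio of -0.90 (95% interval -1.64 to -0.20) that was -0.46 without the T cell marker cells. Nsdhl stood at 10.9, 7.77, 10.2 and 8.28 and Fdft1 at 7.26, 4.31, 9.72 and 6.47 CPM. Lss, Tm7sf2 and Hsd17b7 had 22 to 43 UMIs over the 4 libraries and are not described further.

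Among the regulators in IM cells Srebf2 differed most. It stood at 34.3, 43.1, 71.6 and 40.9 CPM, highest in wildtype late as in AM cells, with a late ratio of HER2 over wildtype of -0.81 (95% interval -1.13 to -0.48) and a wildtype age ratio of 1.06 (95% interval 0.68 to 1.46). Stard4 followed at 11.7, 15.5, 24.7 and 14.7 CPM, with a late ratio of -0.75 (95% interval -1.30 to -0.19). Scap stood at 19.4, 13.8, 16.8 and 21.7, Insig1 at 16.1, 13.4, 17.7 and 12.2, Insig2 at 22.98, 17.7, 21.6 and 18.9 and Srebf1 at 15.7, 12.9, 11.9 and 13.97 CPM. Ggps1, at 18.9, 9.92, 15.5 and 12.2 CPM, had an early ratio of -0.93 (95% interval -1.72 to -0.18), which was 0.0072 without the T cell marker cells. Mylip stood at 61.3, 63.4, 44.2 and 55.1, Npc1 at 64.9, 59.1, 71.6 and 59.5, Acly at 49.6, 50.5, 57.9 and 55.9 and Fasn at 13.3, 12.1, 11.5 and 8.54 CPM, of which Mylip was lower with age in wildtype, at -0.47 (95% interval -0.85 to -0.098). The age ratios of Srebf2 and Mylip use the IM class of wildtype early, where 132 of 330 cells held 3 or more T cell marker UMIs. Their sizes without those cells are not given here.

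Counted over members with 10 CPM or more in either IM library, the interval lay above 0 for 0 and below 0 for 3 of 21 early, against 9.05% and 19.5% of 8616 genes. Late it lay above for 2 and below for 7 of 23, against 8.61% and 21.9% of 8346 genes. With age in wildtype it lay above for 6 and below for 1 of 23, against 16.7% and 22.1%, and in HER2 above for 2 and below for 0 of 20, against 5.78% and 11.1%. Some members in these counts reached 10 CPM in their higher library alone, which fixed their direction. They were Ggps1 early (18.9 and 9.92 CPM) and Sqle late (12.8 and 5.43 CPM). With age in wildtype they were Sqle (3.63 and 12.8 CPM) and Mvk (4.03 and 10.6 CPM). No count without them was made. The early shares lie near or under the background. The folds of single IM genes given above are all past the step with an interval leaving out 0, a choice made after their values were seen. They are not all such folds. Of the age folds only those of Srebf2 and Mylip in wildtype are given.

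In other cells the enzyme sum was 307, 281, 343 and 281 CPM. Endothelial cells, told by their markers, stood at 372, 312, 324 and 315 CPM. Epithelial cells of wildtype late stood at 737 CPM, from 17 cells and 122 enzyme UMIs, against 188 to 357 CPM in the other libraries from 3 to 18 cells. Without epithelial cells the sum of other cells was 304, 278, 272 and 284 CPM, and the late ratio of HER2 over wildtype went from -0.29 (95% interval -0.50 to -0.072) to 0.065 (95% interval -0.18 to 0.31). T cells stood at 288, 153, 225 and 223 CPM.

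Lipid genes around the pathway were described from lists chosen with results of these data known. Early, of 12 fatty acid genes known as SREBP targets or partners, 6 reached 10 CPM in AM cells. Of these Scd1, a desaturase, was higher in HER2 at 0.56 (95% interval 0.28 to 0.83), and Elovl6, an elongase, lower at -0.41 (95% interval -0.73 to -0.099). By the counts that these intervals imply, both lay below 10 CPM in their lower library. Each could therefore only be called in the direction seen. Of 8 genes of LXR-driven efflux 7 reached the level, and Apoe, a lipid carrier, was higher at 0.44 (95% interval 0.38 to 0.49), with 308 against 227 CPM. The C1q genes that mark IM cells moved the same way in AM cells, from 46.4 CPM in wildtype to 63.0 CPM in HER2. Of 12 genes on a list named for sterol storage and movement, 11 reached the level and 0 passed the step. That list is loosely drawn, since its Mbtps2 encodes a protease that cuts SREBP and its Acat1 a mitochondrial thiolase. Late, Apoe was again higher at 0.71 (95% interval 0.66 to 0.76). The C1q genes again moved with it, from 81.9 to 160 CPM, and the upper bound of free RNA was 2.47% of AM UMIs in wildtype late and 8.05% in HER2 late. With free RNA subtracted the late Apoe ratio was 0.33 and the early one 0.67. The part of IM RNA in the Apoe difference was not tested. Ch25h, which makes the oxysterol that blocks SREBP, was lower late at -1.11 (95% interval -1.31 to -0.91), with 12.2 against 26.3 CPM. The fatty acid genes Acaca, Scd2 and Fads1 were lower late at -0.40, -0.44 and -0.54. On the storage and movement list Stard3, Scarb1, Tmem97, Acat1 and Mbtps2 were lower at -0.33 to -0.39. These are 3 of 6 fatty acid genes and 5 of 11 genes of the storage and movement list at the level, beside 29.3% of all genes called lower. Relative to the median of all genes all of these lay inside the step except Fads1, at -0.33. By the counts that its late ratio and its age interval in wildtype imply, Fads1 lay below 10 CPM in HER2 late. It could therefore only be called lower.

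With age in wildtype Ch25h was higher at 1.49 (95% interval 1.26 to 1.73), Fads1 at 0.99 (95% interval 0.69 to 1.29) and Scd1 at 0.76 (95% interval 0.51 to 1.02). By the counts that these values and the late levels imply, each lay below 10 CPM in wildtype early. Each could therefore only be called higher. Acaca, Scd2, Lpcat3, Stard3, Acat1 and Mbtps1 were higher by 0.34 to 0.46, beside 27.3% of all genes called higher, and none of these 6 passed the step relative to the median of all genes. With age in HER2, 0 genes of these 3 lists passed the step.

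The authors' deposited table of AM averages gave enzyme sums of 3.43 in wildtype and 2.92 in HER2 early, a log2 ratio of -0.23. Late, the authors' deposited table gave 4.08 and 3.45 per 10000, a ratio of -0.24. The direction was the same as in the summed counts for 24 of 29 members early and 28 of 29 late. These averages come from the same libraries and so are no replicate.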

How the data were processed

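Single lung cells of 4 libraries, 1 per group, were read with a droplet 3′ assay, per the labels' protocols. Groups were taken from the sample titles, since the strain entry names both genotypes for every sample. Whole UMI counts for each gene in each barcode were deposited by the authors, unfiltered. The submitters' processing notes name Cell Ranger 5.0.1 and mm10. Per the file headers, the version was Cell Ranger 4. The authors also deposited average signal over AM cells, scaled to 10000 over 15906 genes, with the choice of cells not given in the sources used here. The sort gate is not described, and it can set the shares of cell classes.

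The cell limits removed 12.8 to 21.0% of barcodes for mitochondrial UMIs. No doublet caller was run, so doublets were left in. Sums of counts over the cells of a class in a library were scaled to CPM. Levels carry exact Poisson 95% intervals and folds exact conditional binomial ones, which cover counting error only. Cells are not replicates, so no test or p-value was computed. The calculation of folds was tested on simulated counts. The members and lists were chosen with earlier results of these data known. Every member is accounted for. Results on some related genes are not reported here. Library values are given for members with a mean of 20 CPM or more in AM cells or 50 UMIs or more in IM cells, and from other lists for genes past a log2 fold of 0.32 with an interval leaving out 0.

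Free RNA was set, as an upper bound, at the lowest ratio of class to free RNA among markers of other cells with 30 or more free UMIs, which gave 2.47 to 8.05% of AM and 2.48 to 15.2% of IM UMIs. A first form that summed all such markers was dropped after its values were seen. Alternatives changed the cell limit, total, weights, filter, centring, cycling cells, deepest cells, free RNA, transcript length (a lowess trend with fraction 0.3) and the source of AM averages. Gene positions and lengths are from GENCODE on GRCm38, the assembly also called mm10. Promoters are from RefSeq (GRCm38.p6). Near copies were sought by BLAST 2.17.0 of the last 300 transcribed bases, at 95% identity over 90 bases or more. Python 3.11.15, numpy 2.4.6, scipy 1.17.1 and statsmodels 0.14.6 were used.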

Additional observations from a re-analysis of the deposited data

Results flagged for a closer look

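Several lipid genes of AM cells had log2 folds of HER2 over wildtype on opposite sides of 0 at 16 and 32 weeks, with the counting interval leaving out 0 at both. The difference between the stages was not tested, since each stage is 1 library per genotype. Mylip was 0.29 early and -0.14 late, Abca1 0.23 and -0.17, Abcg1 0.082 and -0.16, and Lipa 0.24 and -0.14. Mylip, Abca1 and Abcg1 are known LXR targets, and Lipa encodes the lysosomal acid lipase. Relative to the late median of all genes (-0.21) their late folds were 0.073, 0.040, 0.051 and 0.063, above 0 as early.

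The same genes and Apoe had opposite folds of 32 over 16 weeks in wildtype and in HER2, again untested, from the same 4 libraries. Mylip was 0.15 in wildtype and -0.28 in HER2, Abca1 0.22 and -0.18, Abcg1 0.043 and -0.20, and Lipa 0.27 and -0.11. Apoe went the other way, at -0.088 in wildtype and 0.18 in HER2. Relative to the median of all genes in wildtype (0.16), the wildtype folds were -0.012 for Mylip, 0.054 for Abca1, -0.12 for Abcg1, 0.11 for Lipa and -0.25 for Apoe. On that scale Mylip and Abcg1 lay below 0 in both genotypes.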

How the results depend on the processing

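Over 239 alternative values of the enzyme sums, counts and medians, 214 stayed within their counting interval or within 1.5 times the main count, and 25 moved. The enzyme sum of AM cells kept its sign under all alternatives run, at -0.27 to -0.23 early, -0.31 to -0.043 late, 0.043 to 0.26 for age in wildtype and 0.19 to 0.26 for age in HER2. The late and wildtype values depend most on the median of all genes. Relative to it the late enzyme sum was -0.043, the late median -0.071 and the late count of lower members 2. The age sum in wildtype was 0.043, with 2 members higher and 1 lower, and the late sum in IM cells was -0.069. Early, the sum was -0.24 on that scale. With mitochondrial, ribosomal protein and rRNA-overlapping genes left out of the total, 5 members were lower early and 5 higher with age in HER2, the late sum was -0.16 and the wildtype age sum 0.15. With no minimum CPM, 6 members were lower early, 14 lower late, 15 higher with age in wildtype and 5 in HER2. With every cell weighing the same, 6 members were higher with age in HER2 and the wildtype age sum was 0.25. With a trend with transcript length removed, the late sum was -0.31 and the wildtype age sum 0.26. In cells with 3000 to 6000 UMIs, an alternative added after seeing the data, 1 member was higher early, 5 were lower late, 1 was lower with age in HER2, and the late sum was -0.20. Without epithelial cells, also added after seeing the data, the sum of other cells was 0.065 late and -0.16 with age in wildtype, against -0.29 and 0.16 with them. Of 1315 alternative values of single genes 1244 stayed, 70 moved and 1 reversed. The reversed value was Ggps1 of IM cells early, at 0.0072 without cells holding 3 or more T cell marker UMIs, an alternative also added after seeing the data. The cause of the other changes was not tested. No paired analysis was possible because each group is 1 library, for which reason no replicate could be left out either. Depth limits IM cells and the members below 10 CPM, where intervals are wide, and free RNA was subtracted at an upper bound whose form was changed after its first values were seen.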
